A study of Rattus norvegicus with 5 samples.

Results

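NF-kB is a family of dimeric transcription factors built from the subunits Rela, Rel, Relb, Nfkb1 and Nfkb2, held in check by the inhibitors Nfkbia, Nfkbib and Nfkbie. These genes were followed through the first hour of insulin in a rat liver cell line, together with Tnfaip3, a ubiquitin-editing enzyme that shuts the pathway off, and Birc3, an E3 ubiquitin ligase that is both a component and a target of the pathway. Members were found by the gene name printed beside each spot, a suffix for predicted genes being ignored. Of the 10 genes, 7 had a probe of that name. They had 11 of the 41012 probes of the array: Nfkbia, Nfkb1, Nfkb2 and Rela had 2 probes each, and Nfkbib, Rel and Birc3 had 1 each. Nfkbie, Tnfaip3 and Relb had no probe of that name and are not analysed here. All 11 probes were well above background on all 5 arrays, as the scanner software judged it, and none was saturated.

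The samples were Fao cells, an established line from a rat liver tumour in which many hepatocyte genes are still active. All 5 had been grown for 2 days with 10% fetal bovine serum and then kept for 16 h without serum in the presence of 10 nM dexamethasone, a synthetic glucocorticoid that itself restrains NF-kB in many cells. They received 10 nM insulin, and RNA was taken at 0, 15, 30, 45 or 60 min, with 1 sample and 1 one-colour Agilent array for each time. With 1 sample a time, a difference between 2 times has no p-value. The labels do not say whether the dishes came from 1 culture. A p-value of a trend is judged against the scatter of these 5 samples about a straight line. That scatter includes any curve in the course and is not a spread between samples of 1 time. Untreated cells matched in time were not analysed here, and every change is set against the single 0 min sample.

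In resting cells the inhibitors bind NF-kB dimers and keep them in the cytoplasm. Signals from cytokine or pattern receptors activate the IkB kinase complex, which marks Nfkbia for destruction, and the freed dimers enter the nucleus. Nfkbia is itself one of their targets, so new inhibitor is made within the hour and ends the response. In liver cells the pathway is known for the acute phase response and for protection from death induced by tumour necrosis factor.

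Several of these genes have the binding sequence of NF-kB beside their own start. The promoters below are shown because they show where this sequence lies in members with large and with small changes. They are from RefSeq (assembly GRCr8), read 5′ to 3′ on the strand of the gene, with matches to the NF-kB consensus in capitals. The stretches of Nfkbia (chr6:78597073-78597222, minus strand), Rel (chr14:101921939-101922088, minus strand), Nfkb2 (chr1:255108224-255108373, plus strand) and Rela (chr1:212354186-212354335, plus strand) are the 150 bases before the start, and that of Nfkb1 (chr2:226805439-226805468, minus strand) is the 30 bases around its match, which lies just after the start.
Nfkbia: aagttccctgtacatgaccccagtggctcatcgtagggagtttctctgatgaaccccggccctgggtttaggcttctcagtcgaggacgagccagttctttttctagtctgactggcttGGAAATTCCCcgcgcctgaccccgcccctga
Rel: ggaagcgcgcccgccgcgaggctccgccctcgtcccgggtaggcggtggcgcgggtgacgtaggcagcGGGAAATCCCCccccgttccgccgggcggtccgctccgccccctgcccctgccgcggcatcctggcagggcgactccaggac
Nfkb2: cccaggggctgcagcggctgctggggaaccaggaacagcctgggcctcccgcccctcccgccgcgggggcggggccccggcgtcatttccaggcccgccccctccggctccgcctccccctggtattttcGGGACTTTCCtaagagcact
Nfkb1: gacgtcagtGGGAATTTCCagccaggaagt
Rela: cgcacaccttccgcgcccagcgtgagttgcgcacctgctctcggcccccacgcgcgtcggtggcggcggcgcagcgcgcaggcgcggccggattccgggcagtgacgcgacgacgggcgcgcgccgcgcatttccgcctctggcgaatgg

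The consensus searched was the common degenerate NF-kB site of 10 bases, in either orientation, from 250 bases before to 50 bases after the start. It occurred in 2515 of 33469 promoters of that length, or 7.51%. Of the 7 genes measured on the array, 6 were in the promoter table and 4 of these held a match. The match in Nfkbia began 31 bases before the start, that in Nfkb2 20 bases before it, and the run of capitals in Rel, 82 bases before it, holds a pair of overlapping matches. A further overlapping pair in Rel lay 219 bases before the start, outside the stretch shown. Nfkbib and Rela had no match in this window. A match is a string of letters and not a measured binding site, and these arrays hold no measurement of binding.

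Levels are given as the log2 of the background-subtracted signal after division by the 75th percentile of the array, and a change is the difference in that level from 0 min. A change of 1 is therefore 2-fold, the threshold used to call one. The technical error was taken from probes printed 10 times on each array. It gave a change a standard deviation (SD) of 0.196, 0.189, 0.196 and 0.184 at 15, 30, 45 and 60 min, within arrays only. Over all probes well above background on both arrays the SD of the change was 0.23, 0.23, 0.25 and 0.34 at these times, with medians between 0.02 and 0.03. The arrays of 0 to 45 min were on slide 1, in positions that followed the order of time, and that of 60 min was on slide 2 with a scan of its own. At 60 min the slide and the time cannot be told apart, nor can position and time before it. In a bulk sample, fewer cells with a transcript and less of it per cell cannot be told apart either. Added control transcripts lay 0.15 to 0.21 above their 0 min level on this scale, so scaling on them lowers every change by that amount.

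Nfkbia, the inhibitor that is destroyed and remade in each cycle of the pathway, gave the largest differences between times, and its probes followed different courses. Its brighter probe (rn4 chr6:75730438-75730497, minus strand) had log2 levels of 4.06, 3.73, 5.07, 5.27 and 4.32 at 0, 15, 30, 45 and 60 min. It was thus lowest at 15 min, high at 30 and 45 min, and near its start at 60 min. The changes were −0.33, 1.01, 1.21 and 0.27, an increase of 2.02-fold by 30 min and of 2.32-fold by 45 min. Its processed signal was 4990 units at 0 min and 9834 units at 45 min, far above the local background. The change at 30 min was under 2-fold in 4 planned settings, at 0.98 with quantile scaling, 0.90 both with a normal-exponential background model and without background subtraction, and 0.86 with scaling on the control transcripts. At 45 min it was 1.10 or more in the first 3 of these and just past 2-fold in the last. Against the 15 min array the changes were 1.34 and 1.54. The change at 15 min was −0.98 with the normal-exponential model. It was −0.37 with that model refitted without 5 spots far below background on the 15 min array.

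The second Nfkbia probe (rn4 chr6:75730216-75730275), 222 bases away on the same strand, had log2 levels of −1.33, −0.78, −0.29, −1.15 and −2.54. It was high at 15 and 30 min and lowest at 60 min. Its changes were 0.55, 1.04, 0.18 and −1.21, a 2.05-fold increase at 30 min and a 2.31-fold decrease at 60 min. Its signal was 2.73 to 5.70 times the local background, against 83.3 to 225 times for the brighter probe. Without background subtraction the changes at 30 and 60 min were 0.84 and −0.92, under 2-fold in both directions. From 45 to 60 min the level differed by −1.39 for this probe and by −0.95 for the brighter one, the same direction for both, across the change of slide.

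The probes of a gene were said to disagree at a time where their changes differed by more than 2 SD of such a difference, which is 0.55, 0.53, 0.55 and 0.52 at the 4 times. The changes of the Nfkbia probes, brighter minus dimmer, differed by −0.88, −0.03, 1.03 and 1.48. They therefore disagreed at 15, 45 and 60 min and not at 30 min, where both were 2-fold higher. At 60 min the difference was 1.17 to 1.19 with other treatments of background and 2.35 against the 15 min array. With that array as reference they also disagreed at 30 min, by 0.85. At 15 min the Nfkbia probes differed by −1.68 with the normal-exponential model. The other 3 genes with 2 probes showed no disagreement on the main scale, where their largest difference, for Nfkb2 at 60 min, was −0.34. With the normal-exponential model the Nfkb2 and Rela pairs differed at 15 min by −1.80 and −1.83, and the Nfkb2 pair at 60 min by 0.52, just past the threshold. From probes at levels below −2 alone, 2 SD of such a difference at 60 min was 0.63. That model was also refitted without 5 spots far below background on the 15 min array, a setting chosen after the values were seen. Of these 3 genes, only Nfkb2 at 60 min then still disagreed. The Nfkbia pair still disagreed at 15, 45 and 60 min, by −0.82, 0.93 and 1.17.

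**Figure D1:**
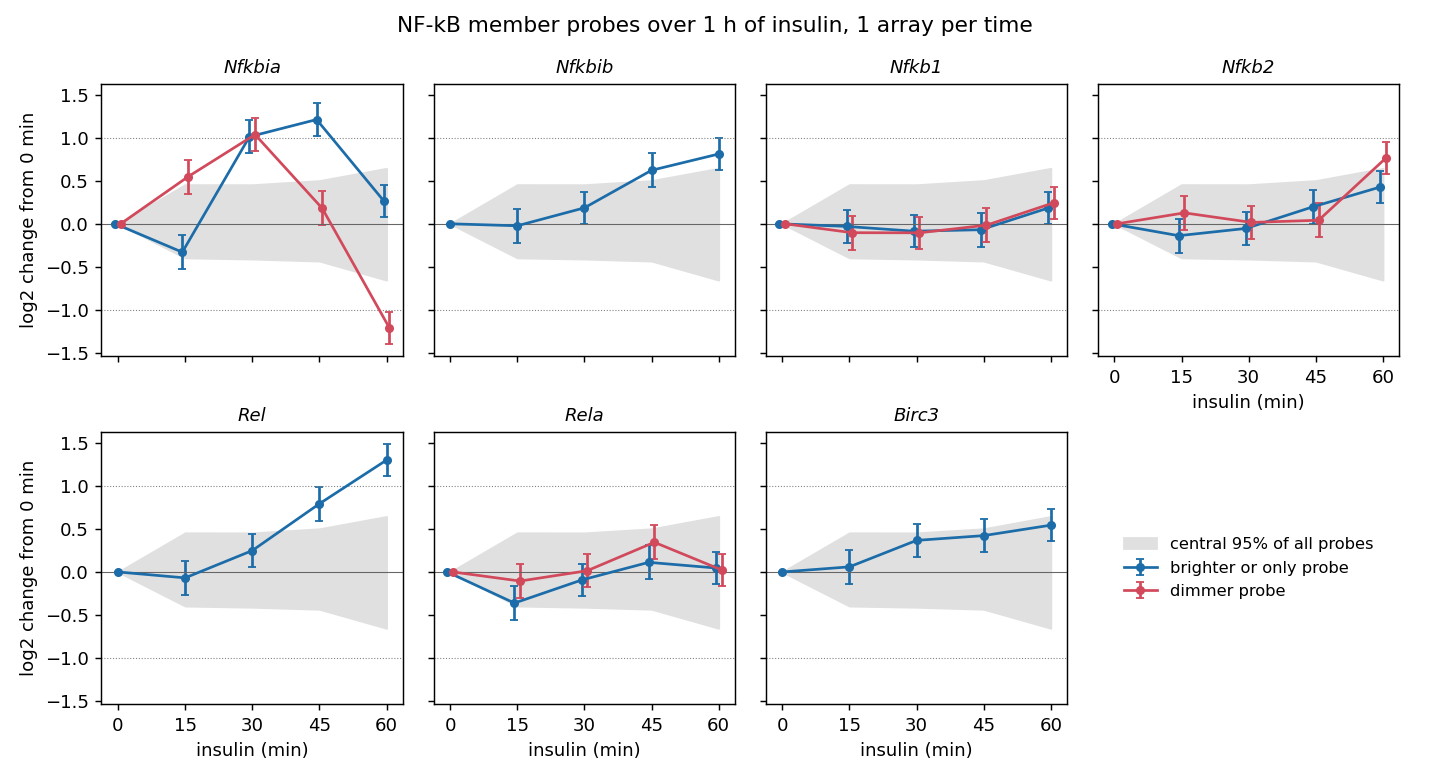
Log2 change from 0 min (vertical axis) against minutes of insulin (horizontal axis) for the 11 probes of 7 genes, with 1 array per time. Bars are the technical SD of a change (0.184 to 0.196), the grey band holds the central 95% of all probes at each time and dotted lines mark 2-fold. The Nfkbia probes meet at 30 min and part at 15, 45 and 60 min, Rel and Nfkbib reach 1.30 and 0.81, and Nfkb1 stays inside the band.

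Nfkbib, the second classical inhibitor, which is degraded and resynthesised more slowly than Nfkbia, was higher late in the hour. Its probe (rn4 chr1:83866200-83866259, minus strand) had log2 levels of 0.78, 0.76, 0.97, 1.40 and 1.59. The levels at 0 and 15 min differed by less than the technical SD, and those at 45 and 60 min were the highest. The changes were −0.02, 0.19, 0.62 and 0.81, which is 1.54-fold at 45 min and 1.75-fold at 60 min, below the 2-fold threshold. Both lay above the central 95% of all probes, whose upper limit was 0.50 at 45 min and 0.65 at 60 min. With scaling on the control transcripts they were 0.41 and 0.61, and with the other background treatments at 60 min the change was 0.81.

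Rel, the subunit c-Rel best known from lymphocytes, had a higher level at 60 min than at 0 min, by an amount that varied with the background treatment. Its probe (rn4 chr14:104645730-104645789, minus strand) had log2 levels of −3.47, −3.54, −3.22, −2.68 and −2.17, lowest at 15 min and highest at 60 min. The changes were −0.07, 0.25, 0.79 and 1.30, or 1.73-fold at 45 min and 2.46-fold at 60 min. The signal was weak, between 1.59 and 3.12 times the local background, and the technical SD of a change at such levels was 0.22 to 0.25. Without subtraction the change at 60 min was 0.48 and at 45 min 0.45. With the normal-exponential model it was 0.31 and 0.38, below the 0.48 of the brighter Nfkb2 probe at 60 min, and at 15 min it was 1.19, or 0.07 with the refitted model.

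Nfkb2, the p100 precursor of p52 and an inhibitor in its unprocessed form, differed little before 60 min. Its brighter probe, whose alignment spans 193 bases (rn4 chr1:251526647-251526839, plus strand), had log2 levels of 1.96, 1.82, 1.90, 2.15 and 2.38. The changes were −0.14, −0.05, 0.20 and 0.43, of which only the last exceeded 2 technical SD. With scaling on the control transcripts the last was 0.23. Its dimmer probe, 3778 bases upstream with an alignment that spans 325 bases (rn4 chr1:251522869-251523193), had log2 levels of −3.75, −3.62, −3.73, −3.71 and −2.99, the first 4 within 0.13 of each other. Its change at 60 min was 0.76, but 0.16 without background subtraction and −0.04 with the normal-exponential model, which gave 0.48 for the brighter probe. At 15 min it was 0.13, and 1.22 with that model or 0.05 with its refit.

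Nfkb1, the p105 precursor of p50, was nearly level on both probes. The probe printed 10 times (rn4 chr2:233091120-233091179, minus strand) had log2 levels of 1.77, 1.74, 1.68, 1.70 and 1.95. Its single spots overlapped between all times: they ran from 1.48 to 1.92 at 0 min, from 1.39 to 1.87 at 45 min and from 1.76 to 2.11 at 60 min, with an SD between spots of 0.07 to 0.15. Spots on 1 array measure 1 sample and are not replicates of a time. The changes were −0.03, −0.09, −0.07 and 0.18. The other probe (rn4 chr2:233091704-233091763) had log2 levels of 0.82, 0.71, 0.71, 0.80 and 1.06, with changes of −0.10, −0.11, −0.02 and 0.24. All 8 changes lay inside the central 95% of all probes, and scaling on the control transcripts turned the 60 min change of the first probe to −0.02.

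**Figure D2:**
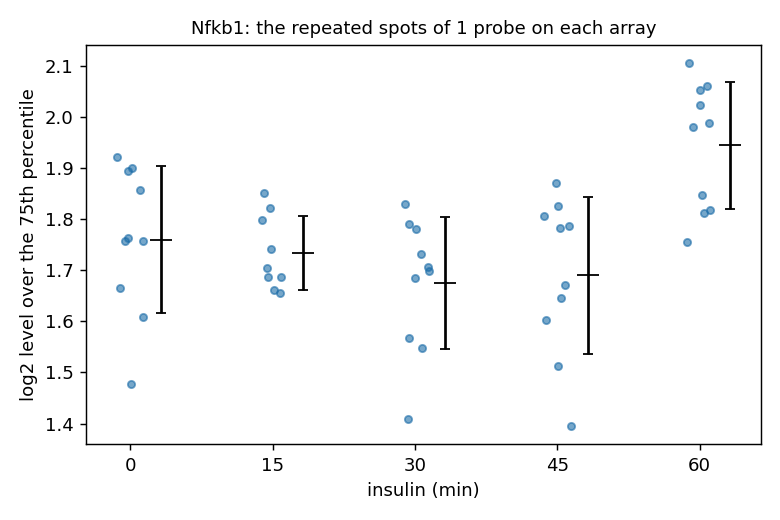
Log2 level of the repeated spots of the Nfkb1 probe printed 10 times (vertical axis) against minutes of insulin (horizontal axis). Points are single spots, spread sideways for legibility, and the crosses with bars are the mean and SD over spots. The spots of the 5 arrays overlap, and the mean is 1.94 at 60 min against 1.67 to 1.76 before it.

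Rela, the p65 subunit that carries the main activation domain of the classical dimer, showed no change past 2-fold on the main scale. Its brighter probe (rn4 chr1:208272349-208272408, plus strand) had log2 levels of 2.15, 1.78, 2.05, 2.26 and 2.19, lowest at 15 min. The changes were −0.36, −0.09, 0.11 and 0.05, so that at 30, 45 and 60 min it was within 1 technical SD of its 0 min level. The dimmer probe (rn4 chr1:208263526-208263582) had log2 levels of −2.89, −2.99, −2.87, −2.54 and −2.86 and was highest at 45 min, with a change of 0.35. With the normal-exponential model its change at 15 min was 1.05, past 2-fold, where the main value was −0.11 and that of the refitted model 0.07. The sign of the small changes at 60 min was not kept on both scales: it was positive for both probes here, at 0.05 and 0.02, and −0.15 and −0.18 with scaling on the control transcripts.

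On the main scale Birc3 had a higher level at each later time. Its probe (rn4 chr8:4682606-4682665, minus strand) had log2 levels of −1.08, −1.02, −0.71, −0.65 and −0.53, the lowest at 0 min and the highest at 60 min. The changes were 0.06, 0.37, 0.42 and 0.54, up to 1.46-fold. The largest step in this order was 0.31, from 15 to 30 min, and each of the other steps was smaller than the technical SD. With scaling on the control transcripts the changes were −0.12, 0.22, 0.21 and 0.34, and with the normal-exponential model 0.40, 0.25, 0.32 and 0.34, so the order of the times was kept in neither. The order was kept with the refitted model (0.07, 0.25, 0.32 and 0.34) and without background subtraction (0.10, 0.28, 0.34 and 0.40).

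Counted over the 11 probes, 3 were at least 2-fold higher at 1 or more times and 1 was at least 2-fold lower. The 3 were both Nfkbia probes and Rel, and the 1 lower was the dimmer Nfkbia probe at 60 min. Of 19746 probes that were well above background throughout, 0.815% were 2-fold higher at any time and 0.638% were 2-fold lower. At 30 min 2 member probes were 2-fold higher against 0.232% of all probes and none lower against 0.188%, at 45 min 1 against 0.334% and none against 0.255%, and at 60 min 1 against 0.632%, with 1 lower against 0.627%. At 15 min none passed in either direction, against 0.118% higher and 0.255% lower. The 3 counts of higher probes rest on 2 genes, and probes of 1 gene share their samples. The Nfkbia probes carry different transcript identifiers in the files, and their sequences were not compared here. Within slide 1, at 15 to 45 min, 2 were higher and none lower, against 0.436% and 0.339%. Without background subtraction 1 probe was 2-fold higher, the brighter Nfkbia probe, and none was 2-fold lower. With the normal-exponential model 4 were higher, the brighter Nfkbia probe at 45 min and Rel, the dimmer Nfkb2 and the dimmer Rela probe at 15 min only.

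The median change of the 11 probes was −0.07 at 15 min, 0.02 at 30 min, 0.20 at 45 min and 0.27 at 60 min, where all probes had medians of 0.03, 0.02, 0.02 and 0.02. The number of member probes above their 0 min level was 3, 7, 9 and 10 of 11 at these times, where 57.2%, 54.8%, 54.6% and 52.0% of all probes were. With scaling on the control transcripts it was 1, 5, 5 and 7 of 11, against 16.2% to 25.4% of all probes. Without background subtraction it was 5, 7, 8 and 8 of 11. With the normal-exponential model and with its refit it was 5, 7, 7 and 7, a smaller difference between times than on the main scale. The control transcripts lay 0.21 and 0.20 above their own 0 min level at 45 and 60 min, about the size of the member medians there. Scaling on them lowers the medians of members and of all probes alike, so the gap between the medians stays the same. At the 1.5-fold level, chosen after the values were seen, 5 probes were higher at some time and 1 was lower, against 5.03% and 4.20% of all probes. The additions at this level were Nfkbib and the dimmer Nfkb2 probe. The probes of Nfkbib, Rel, Birc3 and the brighter one of Nfkb2 had a higher level at every step from 15 to 60 min, 4 of 11 against 7.92% of all probes, a pattern also noticed after the values were seen. Birc3 left it with scaling on the control transcripts (0.22 at 30 min and 0.21 at 45 min) and with the normal-exponential model (0.40 at 15 min and 0.25 at 30 min). Rel left it both with that model and with its refit (0.38 at 45 min and 0.31 at 60 min in each).

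A straight trend over the 5 times was the only test the design allowed. It was fitted with limma on 19746 probes, with 3 residual degrees of freedom and Benjamini-Hochberg adjustment. The slope of Rel was 1.39 ± 0.22 log2 units per 60 min (SE, 5 arrays; limma adjusted p = 0.133) and that of Nfkbib 0.91 ± 0.17 (limma adjusted p = 0.163), so neither passed the 5% false discovery rate. The slope of Rel was 0.53 without background subtraction, −0.07 with the normal-exponential model and 0.38 with its refit. For Birc3 the slope was 0.58 ± 0.15 (limma adjusted p = 0.278) and for the brighter Nfkb2 probe 0.48 ± 0.18 (limma adjusted p = 0.443). None of the 11 passed after adjustment. Before adjustment, these 4 had p-values under 0.05 in limma, as had 10.0% of all probes, and 2 of all probes passed after it. A trend misses courses that rise and return, such as that of Nfkbia, whose slopes were 0.83 ± 0.54 and −1.11 ± 0.66 (limma adjusted p = 0.619 and 0.596). Without the 0 min array Rel passed (limma adjusted p = 0.0334, with 29 of all probes passing), and without the 60 min array neither Rel (limma adjusted p = 0.458) nor any other probe did.

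Of the other genes of the pathway, the list upstream of the inhibitors had medians near 0 and 2 genes past 2-fold, Map3k8 and Irak2. The list of kinases and adaptors had 21 of 24 genes on the array, taken by their brightest probe, and median changes of −0.02, 0.01, 0.10 and 0.07 at 15, 30, 45 and 60 min. Map3k8 (Tpl2), a kinase that is bound by p105 in resting cells, had changes of 0.07, 1.19, 1.78 and 0.84 and was the 1 gene of the list 2-fold higher at 30 and at 45 min, where 0.233% and 0.325% of all genes were. Map3k14 (NIK), the kinase that starts the processing of p100, had changes of 0.06, 0.48, 0.64 and 0.22. The signals of Map3k8 and Map3k14 were weak, with log2 levels of −3.82 and −3.73 at 0 min, below the −3.47 of Rel. Their changes were not computed with other background treatments. Ripk1, the adaptor kinase of the tumour necrosis factor receptor, was at 0.80 at 60 min. Irak2, an adaptor kinase of interleukin-1 and Toll-like receptors, was 2.00-fold lower at 60 min, the 1 gene of the list 2-fold lower there against 0.701% of all genes. In the trend test none of the 20 fitted passed after adjustment, and 6 had an unadjusted limma p under 0.05, as had 10.0% of all probes.

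Few receptors and ligands were measured. All 16 of the list were on the array, and 5 were well above background on all arrays compared: Ltb, Tnfrsf1a, Il1rap, Tlr3 and Ltbr. Tnfrsf1a, the main receptor of tumour necrosis factor, had changes of −0.21, 0.40, 0.04 and 0.66, and Ltb, a membrane ligand of the family, was at 0.32 at 60 min. Il1rap, the co-receptor of interleukin-1, lay between −0.08 and 0.20, and Tlr3, a sensor of double-stranded RNA, between −0.36 and 0.19. The list median was −0.08, −0.04, −0.03 and 0.20. None of the 5 was 2-fold different, where 0.110% to 0.629% of all genes were higher and 0.210% to 0.701% lower at a time. A count of none among 5 genes is near such shares. None of the 5 passed in the trend test, and 1 had an unadjusted limma p under 0.05, as had 10.0% of all probes. Tnf, Il1a and Il1b, the ligands best known to start the pathway, were well above background on no array.

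Among other inhibitors and cofactors, 11 of 19 listed genes were on the array and 1 stood out by size. Nfkbiz, a nuclear relative of the inhibitors that acts as a cofactor at some targets, had log2 levels of −1.57, −1.90, −0.48, −0.53 and −1.71. It was thus high at 30 and 45 min and low at 0, 15 and 60 min, with changes of −0.33, 1.09, 1.04 and −0.14. Nfkbiz was the 1 gene of the list 2-fold higher at 30 and at 45 min, where 0.233% and 0.325% of all genes were. A second probe of Nfkbiz was well above background on no array. Nfkbil1 was lower at all 4 times, at −0.07, −0.28, −0.42 and −0.44. Cyld, a deubiquitinase that dampens the pathway, and Crebbp, an acetyltransferase that Rela recruits, were at −0.44 and −0.41 at 60 min. The list median was 0.01, −0.01, −0.02 and −0.12. None of the 11 passed in the trend test, and 2 had an unadjusted limma p under 0.05, as had 10.0% of all probes.

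Of the 4 lists, target genes outside the members had the widest range of changes. Of 26 listed, 24 were on the array and 14 were measured on both arrays at each time, with medians of −0.12, 0.34, 0.15 and 0.29. The number 2-fold higher was 0, 1, 3 and 4 of 14 at 15, 30, 45 and 60 min, where 0.110%, 0.233%, 0.325% and 0.629% of all genes were, and 1 was 2-fold lower at 15 and at 60 min and none at 30 and 45 min, where 0.278%, 0.701%, 0.210% and 0.279% of all genes were. Icam1, an adhesion molecule for white blood cells, had log2 changes of −0.10, 0.61, 1.17 and 1.22. Cxcl10, a chemokine for T cells, had changes of −0.35, 0.95, 1.46 and 1.96, and Lcn2, an iron-trapping acute phase protein, of −0.56, 0.48, 1.16 and 1.52. Junb, a subunit of AP-1, had changes of 0.29, 1.20, 0.13 and −0.64. Icam1, Cxcl10 and Lcn2 therefore had their highest values at 60 min and Junb at 30 min. The chemokines Cxcl1 and Cxcl2 were named after their values were seen. Cxcl1 was the gene 2-fold lower, with changes of −1.45, 0.81, 0.17 and −1.10. Cxcl2 was well above background at 30, 45 and 60 min only. Its signal there was 4.45-fold, 5.90-fold and 4.03-fold its 0 min reading. That reading was not well above background, so the size of these ratios is uncertain. None of the 14 passed in the trend test after adjustment, and 7 had an unadjusted limma p under 0.05, as had 10.0% of all probes. Many of these genes also respond to other factors.

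**Figure D3:**
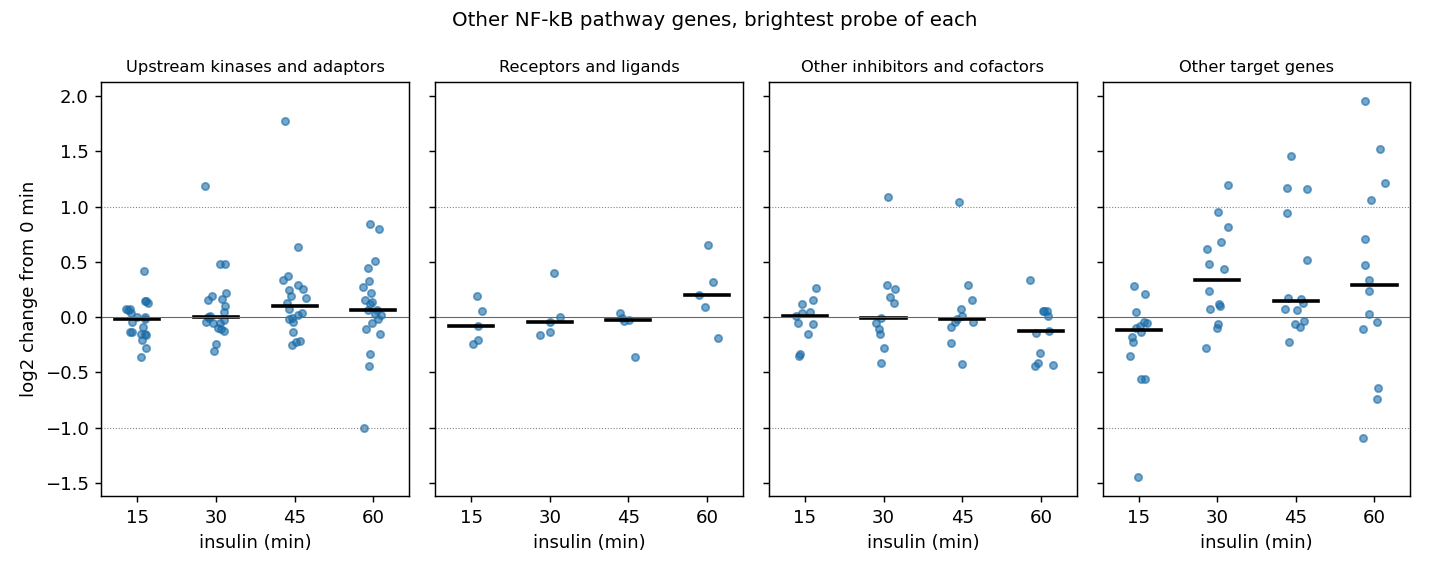
Log2 change from 0 min (vertical axis) at 15, 30, 45 and 60 min of insulin (horizontal axis) for the other genes of the pathway, 1 panel per list. Each point is a gene by its brightest probe, spread sideways, the black bars are medians and dotted lines mark 2-fold. Medians stay between −0.12 and 0.20 in the first 3 panels, and the targets reach 0.34 at 30 min with single genes up to 1.96.

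The probes most like each Nfkbia probe were listed. They share its course by choice and say nothing more about it. Likeness was the Euclidean distance between the 4 changes, among 11344 probes of other genes with a symbol and a signal well above background throughout. The Nfkbia probes were 2.00 apart. Nearest to the brighter one was Nfkbiz, at a distance of 0.45, followed by Plk3, a stress-responsive kinase, Neurl3, Osgin1, a gene induced by oxidative stress, and Mt1, a metallothionein, at 0.60 to 0.73. A second probe of Mt1 was at 1.40 at 60 min, where the near one was at −0.03.

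Nearest to the dimmer Nfkbia probe was Zfp36, which speeds the decay of cytokine messages, at a distance of 0.57. Its changes were 0.20, 1.07, −0.22 and −1.01. Junb was next, at 0.65, followed by Zfp280d, the mitotic kinesin Kif18a and Rbm48, at 0.82 to 0.85. Second probes of Zfp280d and Kif18a were at 0.35 and −0.30 at 60 min, against −0.61 and −0.64 for the near ones. The distance has no test, and all probes share the same 5 samples and the same 0 min array.

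**Figure D4:**
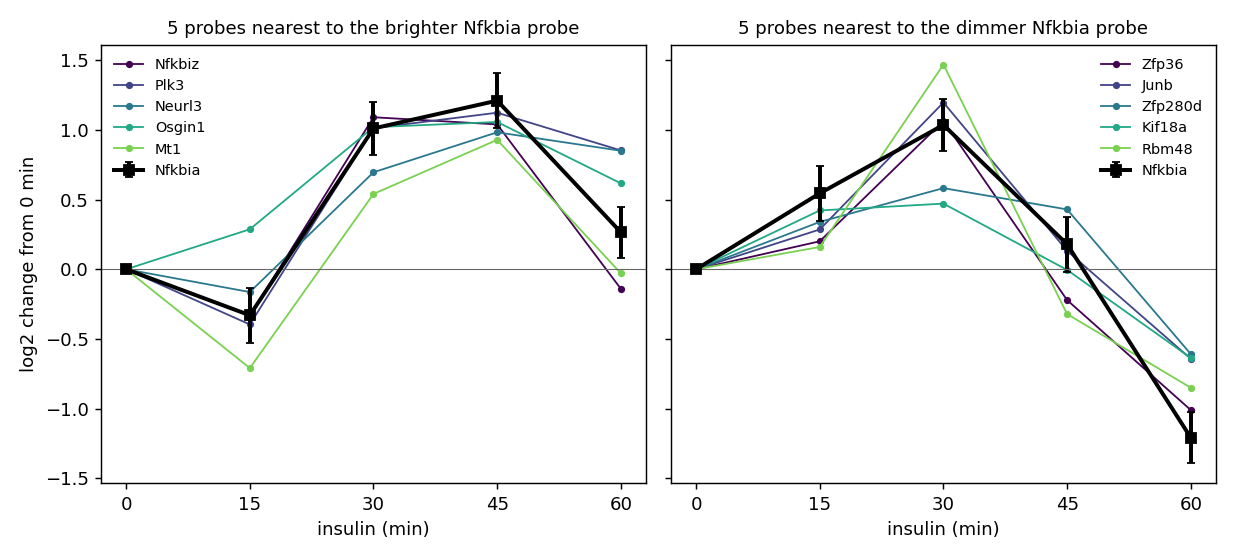
Log2 change from 0 min (vertical axis) against minutes of insulin (horizontal axis) for each Nfkbia probe (black squares, bars are the technical SD of a change) and the 5 probes of other genes nearest to it. The neighbours were chosen for their likeness to each probe, and their distances are 0.45 to 0.73 for the brighter one and 0.57 to 0.85 for the dimmer one.

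The arrays carried the markers of the labelled cell type. All 8 hepatocyte markers, among them Alb, Ttr and Hnf4a, were well above background on all 5 arrays, with a summed signal of 893 to 991 times the 75th percentile. Of 7 markers of macrophages and other white blood cells on the array, Cd163, Adgre1, Aif1 and Itgam were well above background on no array, and Cd68 and Cd14 were on all 5. Their summed signal was 1.49 to 1.79 and was highest at 45 min and lowest at 30 min. Of 5 endothelial markers 3 were well above background on no array, as were 2 of 4 stellate and 2 of 3 biliary markers. In each of these lists 1 marker was well above background on all 5 arrays: Cdh5, Col1a1 and Krt19. Col1a1 was the brightest of them, with a log2 level of 0.77 at 0 min against −2.57 for Cdh5 and −2.42 for Krt19. The summed signals of these lists were 0.23 to 0.35, 1.67 to 1.83 and 0.23 to 0.30.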

How the data were processed

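RNA of 5 samples was measured on rat arrays of 1 design with 43379 non-control spots each. Per the labels' protocols, labelled (Cy3) cRNA was made from 700 ng of total RNA. Per the file headers, intensity was read and background-subtracted with Agilent Feature Extraction 9.5.3.1, with probe positions on rn4. A deposited matrix of log2 values covers 19746 non-control probes, the same ones as those well above background on all 5 arrays. How it was made was not stated in the labels or headers used here.

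Control and outlier spots were left out, spots of a probe averaged and signals divided by the 75th percentile of their array (254 to 299.9 at 0 to 45 min, 480.3 at 60 min), then floored at the lowest signal well above background. Other genes were named through a RefSeq table (GRCr8, names only), a gene by its brightest probe. Between 50.9% and 56.5% of spots were well above background, and with 1 array per time the number of arrays limits the precision. Changes were called at 2-fold, and the trend was fitted with limma 3.58.1 (R 4.3.3). The trend fit was also run on simulated data with straight slopes and independent noise. Such data cannot show how the fit treats curved courses or a shift between slides. Members, lists and tests were chosen with earlier results of these data known. Besides all members, up to 4 genes per list with the largest change at 30 to 60 min and the 5 probes nearest to each Nfkbia probe were named. Ltbr, Tnf, Il1a and Il1b were named after their values were seen. Alternatives covered scaling, background, filters, the reference array and the form of the trend. Python 3.11.15 and pandas 2.3.3 were used.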

Additional observations from a re-analysis of the deposited data

How the results depend on the processing

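The 44 changes of member probes kept their size within the technical SD under quantile and median scaling. They also did so with outlier spots kept, no filter on dim probes and the series matrix values, which could test little. Every member probe passed the filter on each array, so its removal left the values as they were. Keeping outlier spots altered only 1 change, that of an Nfkb1 probe at 15 min, from −0.03 to −0.05. The matrix values come from the same arrays and correlated at 0.999 or more with the centred log2 signals. Scaling on control transcripts lowers every change by the same amount at a time, 0.15 to 0.21, which exceeds that SD at 45 and 60 min for all 22 changes there. Moves larger than that SD numbered 16 with the normal-exponential model, 7 with that model refitted without 5 spots far below background on the 15 min array (chosen after seeing the data), and 6 without background subtraction. Against the 15 min array 9 of 33 moved. The 3 probes 2-fold higher became 4 with the normal-exponential model, 2 with scaling on control transcripts, 2 against the 15 min array and 1 without subtraction. They became 1 with the refitted model, 2 at 15 to 45 min only and 5 at 1.5-fold, all added settings. The 1 probe 2-fold lower became 0 without subtraction, 0 with either model and 0 at 15 to 45 min only (added). The difference between the Nfkbia probes at 60 min, 1.48, was 1.17 with either model, 1.19 without subtraction and 2.35 against the 15 min array. Weak signals limit some of these values. The largest moves, of 1.10 to 1.26, were those of Rel and the dimmer Rela and Nfkb2 probes at 15 min with the normal-exponential model. With the refitted model these changes were 0.07, 0.07 and 0.05. The brighter Nfkbia probe, far above background, also moved at 15 min with the first model, by 0.65. The count of all probes with a trend, 2, was 19 with scaling on control transcripts, 29 without the 0 min array, and 0 with either model, without subtraction, with probes well above background on at least 1 array, without the 60 min array and on log2 time. No paired analysis was possible because each time has 1 sample and the labels carry no replicate numbers.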
